A study of Mus musculus with 12 samples.

Results

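The genes described here encode receptors for neurotransmitters, measured in hippocampal tissue of VP16-CREB mice, whose transgene encodes CREB fused to the viral activation domain VP16 and so switched on without a stimulus. They were chosen by symbol: every gene with a probe set of a single symbol in the AMPA (Gria), kainate (Grik), NMDA (Grin), metabotropic glutamate (Grm), GABA (Gabr), glycine (Glra), nicotinic (Chrn), muscarinic (Chrm), serotonin (Htr), dopamine (Drd) and adrenergic (Adra, Adrb) families. The array held 61 such probe sets for 49 genes, of 8251 genes with a single symbol, and the brightest probe set stood for each gene. Receptor genes outside these 49 were not analysed here. The 12 samples were each hybridised to an Affymetrix MG-U74Av2 array. The transgenic mice (VC) carry the transgene under control of doxycycline (dox): dox keeps it silent and withdrawal of dox switches it on. Whole hippocampus came from VC mice at 1 week (2 arrays), 2 weeks (2 arrays) and 5 weeks (1 array) off dox, from VC mice that were off dox for 3 weeks and then back on it for 2 weeks (1 array, called reversed), from VC mice kept on dox (1 array) and from wild-type mice (2 arrays). CA1, a hippocampal subfield, was microdissected from VC mice after 3 weeks without dox (2 arrays) and from wild-type mice (1 array). The 5 arrays at 1, 2 and 5 weeks are called induced, and the wild-type arrays with the VC array on dox, 3 in all, never induced. Each hippocampal sample pooled 6 to 10 mice, no pool size was available for CA1, and several groups were a single array. The p-values measure the spread between samples, not between mice. Where a comparison joins the induced times, or wild type with VC on dox, that spread also holds differences between the joined groups. The reversed sample is transgenic by its title but wild type by its description, so its values are those of a sample with conflicting labels. Which promoter drives the transgene is not stated in the sources read for this work.

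Fast excitation in the hippocampus runs mainly through AMPA receptors, tetramers of the Gria subunits, with NMDA receptors adding a calcium-permeable current and kainate receptors acting on both sides of the synapse. GABA type A receptors carry most fast inhibition. Metabotropic glutamate, muscarinic, dopamine, adrenergic and most serotonin receptors are coupled to G proteins, and several of them act through cyclic AMP, the messenger upstream of CREB.

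Values below are log2 of the rescaled intensity, with a floor at 6.03, and differences are log2 differences with their standard error (SE) and the Benjamini-Hochberg adjusted p of limma over 7077 tested probe sets. A gene was tested when it lay above its array's median, 8.31 to 8.75, on at least 2 of the 12 arrays. Brightness differs between probe sets for reasons of probe design, so no gene's level is set against another's. The arrays were deposited on different scales: wild-type hippocampus 1 and the 3 CA1 arrays had a trimmed mean of 499.9, and the other 8 arrays 2999 or 3000. Array correlations were 0.83 to 0.92 between the regions, 0.91 to 0.95 within CA1 and 0.93 to 0.98 within hippocampus. The Creb1 probe set that separated the samples best lay at 8.31 to 9.63 on the induced hippocampal arrays. It measured 8.86 and 9.56 in VC CA1 and 7.11 after reversal, against 6.03 to 6.33 on the uninduced arrays. Another Creb1 probe set lay at 8.14 to 9.15 on the induced hippocampal arrays. That probe set measured 7.69 and 8.8 in VC CA1 and 7.69 after reversal, against 6.03 to 7.66 on the uninduced arrays. A further Creb1 probe set, which was not tested, lay at 6.08 to 7.53 on the induced hippocampal arrays. It measured 7.18 and 7.54 in VC CA1 and 6.03 after reversal. The uninduced arrays lay at 6.03 to 7.19, so the groups overlapped.

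Of the 49 receptor genes, 23 passed the filter and 26 did not. By family, those that passed were 3 of 4 AMPA, 2 of 3 kainate, 2 of 4 NMDA, the only metabotropic glutamate, 2 of 10 GABA, the only glycine, 1 of 2 muscarinic, 2 of 8 nicotinic, 7 of 11 serotonin, 1 of 3 dopamine and 1 of 2 adrenergic genes. There were 11 genes above the array's median on all 12 arrays: the AMPA subunits Gria1 and Gria2, the kainate subunit Grik5, the NMDA subunit Grin2c, the GABA type A subunit Gabrb1, the muscarinic receptor Chrm1, the alpha-2 adrenergic receptor Adra2c, and the serotonin receptors Htr1d, Htr4, Htr5a and Htr5b. Gria2, the subunit that makes AMPA receptors impermeable to calcium, ranged from 13.26 to 14.35 over all arrays. Grik5, a kainate subunit that needs a partner subunit to form a channel, ranged from 11.45 to 12.07. Chrm1, the main postsynaptic muscarinic receptor of the forebrain, ranged from 8.35 to 10.39. The heat map of the genes that passed shows that the CA1 arrays stood apart from the hippocampal ones for several receptors, among them Grin2d, Grm8 and Htr7.

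**Figure D1:**
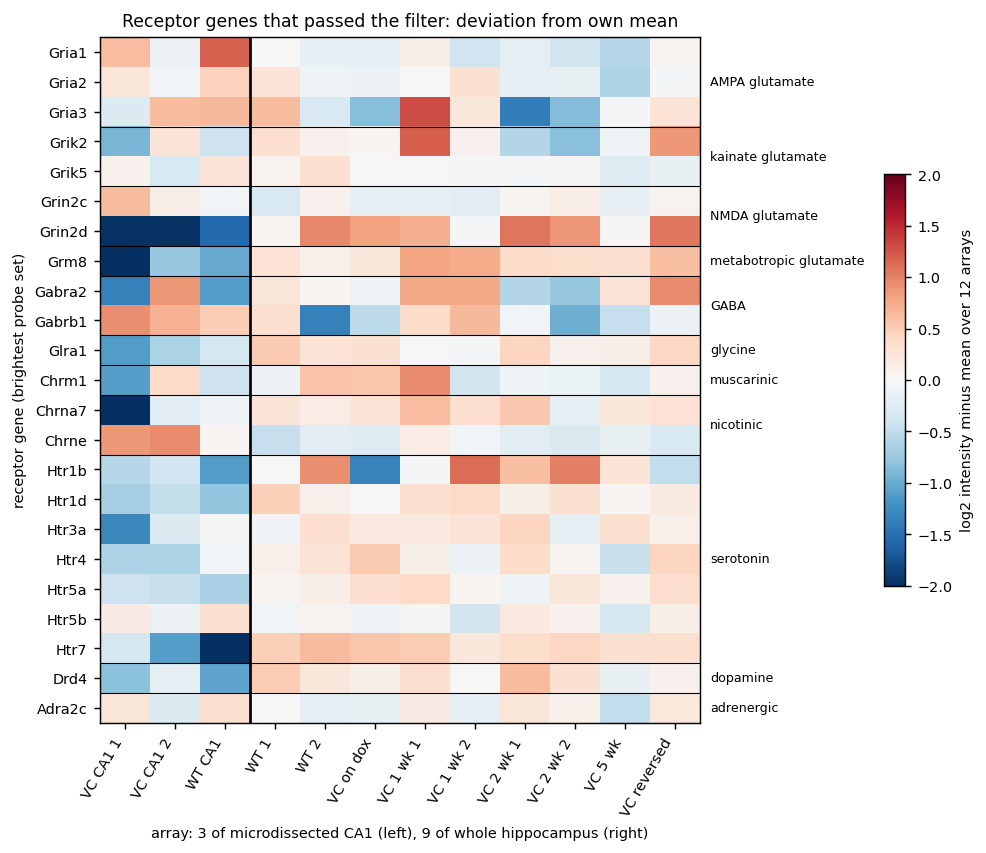
Heat map of the 23 receptor genes that passed the filter (vertical axis, grouped by family) on the 12 arrays (horizontal axis, 3 of CA1 at the left of the heavy line and 9 of whole hippocampus at its right). Colour gives log2 intensity minus the gene's mean over the 12 arrays, cut at 2 either way. Grin2d, Htr7 and Grm8 are blue on the CA1 arrays, and Gria3 and Grik2 are reddest on the first 1-week array.

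Induction of VP16-CREB in whole hippocampus moved no receptor gene past the threshold. Between the 5 induced and the 3 never-induced arrays, limma called 0 of 23 receptor genes at adjusted p under 0.05 and 0 at unadjusted p under 0.05. The background was as sparse: 2 of 7077 probe sets were called (0.0283%), and 222 (3.14%) had an unadjusted p under 0.05. The receptor genes' differences ran from -0.33 to 0.74 with a median of -0.03, beside -0.02 over all tested probe sets, and 12 of 23 were negative. The serotonin autoreceptor Htr1b differed most, with 7.67 and 8.81 on the 1-week arrays, 8.30 and 8.70 on the 2-week arrays and 7.97 on the 5-week array, against 6.36 in VC on dox and 7.69 and 8.62 in wild type. The groups overlapped, and the difference of 0.74 ± 0.43 had an adjusted p of 0.999 (limma). Grm8, a presynaptic metabotropic glutamate receptor that lowers transmitter release, was the only receptor gene of the 23 whose groups did not overlap. It measured 8.87, 8.82, 8.44, 8.42 and 8.41 on the induced arrays, against 8.30 in VC on dox and 8.37 and 8.18 in wild type. It passed the filter through 2 arrays, both of 1 week, and so through the induced group, and nothing is read from its share of 4.35% beside 1.71% of all tested probe sets. Of the 23 genes 0 were lower without overlap, beside 1.65%. Among the genes under the filter, the dopamine receptor Drd3 measured 6.52 and 6.58 on the 1-week arrays, 6.62 and 6.52 on the 2-week arrays and 6.27 on the 5-week array, against 6.91 in VC on dox and 7.45 and 7.62 in wild type. Drd3 was thus lower without overlap, at levels under every array's median, and was not tested. The difference for Grm8 was 0.31 ± 0.25 (adjusted p = 0.999, limma), and its lowest induced array lay just above the highest never-induced one. The other largest differences were 0.42 for the GABA type A subunit Gabrb1, -0.33 for Chrm1, -0.30 for the serotonin receptor Htr4 and -0.25 for the glycine receptor subunit Glra1.

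Taken time by time against the never-induced arrays, limma likewise called 0 of 23 receptor genes at 1, 2 and 5 weeks, with 2, 0 and 2 at unadjusted p under 0.05. Over all tested probe sets it called 0.0283% at 1 week, 0.155% after 2 weeks and 0.989% after 5 weeks, and the shares at unadjusted p under 0.05 were 5.02%, 4.44% and 7.29%. At 1 week the unadjusted p was under 0.05 for Gabrb1 (1.03 ± 0.45, adjusted p = 0.97) and Chrne, the adult muscle nicotinic subunit (0.36 ± 0.15, adjusted p = 0.97). At 5 weeks it was so for Htr4 (-0.74 ± 0.23, adjusted p = 0.382) and Gria2 (-0.64 ± 0.24, adjusted p = 0.523). The 5-week sample was a single array, which the fit assumes to vary like the replicated ones. At 5 weeks 15 of 23 receptor genes were negative, with a median of -0.23 beside -0.03 over all tested probe sets, of which 53.7% were negative, and at 2 weeks 14 of 23 were negative, with a median of -0.05 beside -0.01. In the same 5-week comparison 10 of 16 microglia and macrophage markers and the astrocyte marker Gfap, 1 of 14, rose, and the microglia median was 1.74. Dentate granule cell markers were negative in 5 of 6, with a median of -0.62, and Lct fell. The summed microglia level was 16.11 at 5 weeks, against 14.28 to 14.52 on the never-induced arrays, and the dentate level was 15.52, against 15.36 to 15.60. Their part in the receptor values was not tested.

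Among the tested receptor genes the largest difference in hippocampus lay between the times, in Gria3. It was 1 of 3 subunits described here whose 2-week arrays were low. Gria3, an X-linked AMPA subunit, measured 7.16 in VC on dox and 8.65 and 7.70 in wild type, then 9.32 and 8.23 on the 1-week arrays, 6.63 and 7.15 on the 2-week arrays, 7.97 on the 5-week array and 8.28 on the reversed one. Grik2, a kainate subunit that forms channels alone, measured 8.37 in VC on dox and 8.67 and 8.42 in wild type, then 9.54 and 8.42 on the 1-week arrays, 7.75 and 7.51 on the 2-week arrays, 8.25 on the 5-week array and 9.20 on the reversed one. Gabra2, an alpha subunit of GABA type A receptors common on forebrain principal cells, measured 9.02 in VC on dox and 9.37 and 9.17 in wild type, then 9.89 and 9.89 on the 1-week arrays, 8.54 and 8.37 on the 2-week arrays, 9.41 on the 5-week array and 10.08 on the reversed one. For each of the 3 genes the 2-week arrays were the lowest of the hippocampal arrays, and the never-induced arrays lay between those of 1 and 2 weeks for Gabra2. Gabrb1, a beta subunit of the same receptors, measured 11.08 in VC on dox and 11.92 and 10.25 in wild type, then 11.97 and 12.25 on the 1-week arrays, 11.54 and 10.62 on the 2-week arrays, 11.14 on the 5-week array and 11.48 on the reversed one. Gria2 measured 13.76 in VC on dox and 14.14 and 13.79 in wild type, then 13.88 and 14.18 on the 1-week arrays, 13.71 and 13.74 on the 2-week arrays, 13.26 on the 5-week array and 13.84 on the reversed one.

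**Figure D2:**
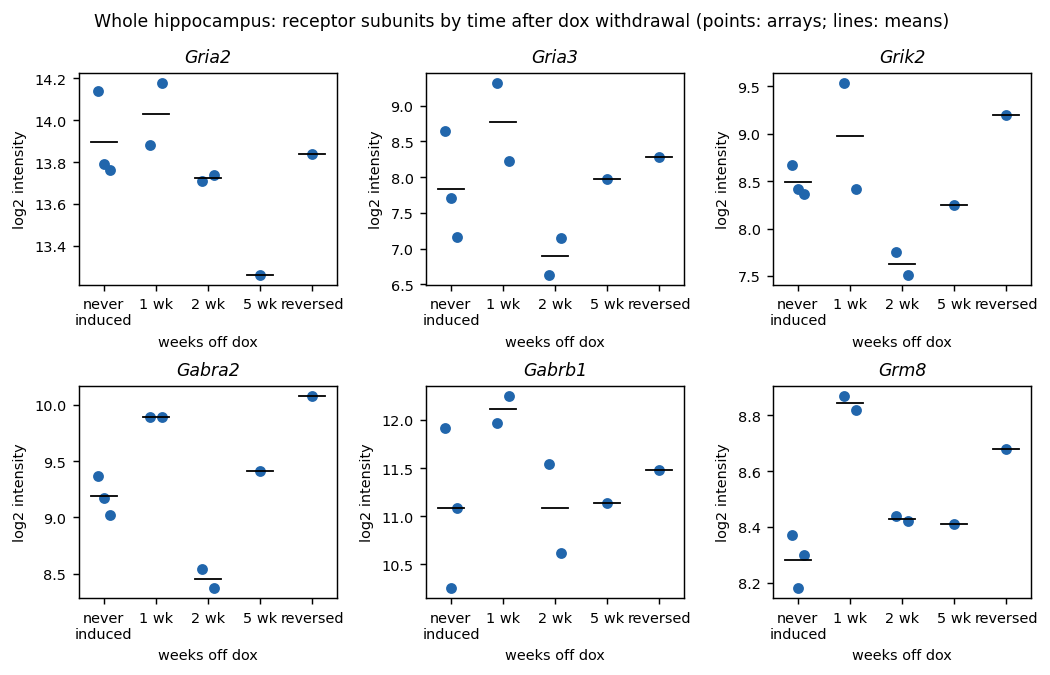
Log2 intensity (vertical axes, each with its own range) of 6 receptor genes in whole hippocampus, by weeks off dox (horizontal axis, with the never-induced arrays at the left and the reversed sample at the right). Points are arrays and short lines are group means. Gabra2 lies at 9.89 on both 1-week arrays, and at 8.54 and 8.37 on the 2-week arrays. None of the 6 passed the test.

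None of these passed the test between the 3 later arrays (2 and 5 weeks) and the 2 arrays at 1 week. Limma called 0 of 23 receptor genes, with 3 at unadjusted p under 0.05, beside 41 of 7077 probe sets called (0.579%) and 7.97% at unadjusted p under 0.05. Those 3 were Gria2 (-0.54 ± 0.19, adjusted p = 0.478), Gria3 (-1.34 ± 0.50, adjusted p = 0.515) and Grik2 (-1.04 ± 0.40, adjusted p = 0.557). Gabrb1 differed by -1 ± 0.46 (adjusted p = 0.669) and Gabra2 by -0.96 ± 0.53 (adjusted p = 0.755). The glycine receptor subunit Glra1 (0.22) and the NMDA subunits Grin2d (0.16) and Grin2c (0.16) had the largest positive differences. Gabra2 was called (adjusted p at its lowest 0.039) in a fit of the 8 higher-scale hippocampal arrays, and also when either VC CA1 array was left out. In direction, 19 of 23 receptor genes (82.6%) were lower at the later times, beside 51.3% of all tested probe sets, and their median was -0.16 beside -0.01. In 8 of them the later arrays all lay under both 1-week arrays (Chrne, Gabra2, Gabrb1, Gria2, Gria3, Grik2, Grm8 and Htr1d), which is 34.8% beside 13.0% of all tested probe sets. Grm8 counts there although it passed the filter only through the 1-week arrays. Conversely, in Glra1 and Grin2c, 8.7% beside 13.3%, the later arrays all lay above both.

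These counts turned on single arrays. Without the first 1-week array 14 of 23 receptor genes were lower at the later times, with a median of -0.04, and without the 5-week array 13 of 23. That 1-week array was the highest of the 9 hippocampal arrays for 18 of the 49 receptor genes and 8 of the 23 that passed, beside 14.5% of all tested probe sets. It also had the lowest ratios of 3′ to 5′ control probe sets in hippocampus, at log2 values of 0.85 for actin, -0.20 for Gapdh and 1.05 for pyruvate carboxylase, against 1.09 to 1.49, 0.07 to 0.44 and 1.29 to 1.92 on the other hippocampal arrays. Such ratios follow RNA and labelling quality, and their part in the result was not tested. Over the same comparison 10 of 16 tested microglia and macrophage markers rose. The summed level of that list was 15.15, 15.30 and 16.11 at the later times, against 14.33 and 14.32 at 1 week, and C1qa lay between 11.03 and 13.47 on all hippocampal arrays. CA1 pyramidal markers were negative in 7 of 7, with none called, and their summed level was 13.39 to 13.58 at the later times, against 13.89 and 13.77 at 1 week. In tissue samples fewer cells of a type and less RNA per cell cannot be told apart, and the part of these lists in the receptor values was not tested.

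The reversed sample did not differ from either set of hippocampal arrays in any receptor gene past the threshold. Against the induced arrays limma called 0 of 23, with 0 at unadjusted p under 0.05, and over all probe sets 0 (0%), with 182 (2.57%) at unadjusted p under 0.05. Grik2 differed by 0.90 ± 0.63, Gabra2 by 0.86 ± 0.75 and Htr1b by -1.08 ± 0.65, each with an adjusted p that rounds to 1. Against the never-induced arrays it again called 0 of 23 and 0 of all probe sets (0%), with 0 and 179 (2.53%) at unadjusted p under 0.05. There Gabra2 differed by 0.89 ± 0.79 and Grik2 by 0.71 ± 0.66. Gabra2, at 10.08, was higher after reversal than on any other hippocampal array.

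The largest receptor differences in the data were between microdissected CA1 and whole hippocampus. The comparison set the mean of the VC and wild-type levels in CA1 against the mean of the induced and never-induced levels in hippocampus. Limma called 9 of 23 receptor genes (39.1%), beside 2547 of 7077 probe sets (36.0%), so the count was near the background. At unadjusted p under 0.05 it was 14 of 23, beside 47.2%. Lower in CA1 were 7, beside 24.6% of all probe sets, and higher were 2, beside 11.4%. The receptor genes' median was -0.56, beside -0.13 over all tested probe sets. By RefSeq on GRCm38.p6 the 9 genes lie apart in the genome. Those lower in CA1 are at chr19:35958415-36058133 (Htr7), chr7:45831883-45871194 (Grin2d), chr6:27275121-28135146 (Grm8), chr4:136423522-136444405 (Htr1d), chr11:55514239-55608198 (Glra1), chr7:141291974-141296464 (Drd4) and chr5:27841716-27855086 (Htr5a). Those higher are at chr11:70614883-70619213 (Chrne) and chr11:57011571-57330244 (Gria1).

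Among the glutamate receptors, Grin2d, an NMDA subunit that in rodent hippocampus is associated with interneurons, was at the floor of 6.03 on both VC CA1 arrays and at 6.45 in wild-type CA1. On the hippocampal arrays it ranged from 7.97 to 9.08, with a median of 8.81. The difference was -2.34 ± 0.29 (adjusted p = 0.000433, limma), at least 5.05-fold lower, and the regions did not overlap. Grm8 measured 6.03 and 7.31 in VC CA1 and 7.07 in wild-type CA1, against 8.18 to 8.87 in hippocampus (median 8.42). It was lower by -1.57 ± 0.25 (adjusted p = 0.00133), at least 2.97-fold, again without overlap. Gria1, the AMPA subunit most tied to long-term potentiation in CA1, measured 12.62 and 11.89 in VC CA1 and 13.18 in wild-type CA1, against 11.44 to 12.13 in hippocampus (median 11.83). It was 1.88-fold higher in CA1 (0.91 ± 0.19, adjusted p = 0.00557), although 1 VC CA1 array lay within the hippocampal range. Gria2 (0.33, adjusted p = 0.196), Gria3 (0.58, adjusted p = 0.417), Grin2c (0.27, adjusted p = 0.193), Grik2 (-0.43, adjusted p = 0.427) and Grik5 (0.04, adjusted p = 0.837) did not pass.

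Of the serotonin receptors, 3 of 7 were lower in CA1, beside 24.6% of all tested probe sets. Htr7, which stimulates adenylyl cyclase, measured 8.37 and 7.63 in VC CA1 and 6.42 in wild-type CA1, against 8.95 to 9.36 in hippocampus (median 9.14). The difference of -1.97 ± 0.16 (adjusted p = 6.73e-05) was 3.93-fold, and all 3 CA1 arrays lay under all hippocampal ones. Htr1d, an inhibitory autoreceptor, measured 8.72 and 8.90 in VC CA1 and 8.61 in wild-type CA1, against 9.38 to 9.86 in hippocampus. It was 1.85-fold lower (-0.88 ± 0.14, adjusted p = 0.00153). Htr5a, coupled to inhibitory G proteins, measured 9.03 and 8.98 in VC CA1 and 8.79 in wild-type CA1, against 9.34 to 9.84 in hippocampus. It was 1.62-fold lower (-0.69 ± 0.14, adjusted p = 0.00398). The regions did not overlap for either gene. Htr4 (-0.49, adjusted p = 0.0535), Htr3a, the subunit of the serotonin-gated channel (-0.56, adjusted p = 0.0691), Htr1b (-1.03, adjusted p = 0.0814) and Htr5b (0.21, adjusted p = 0.307) missed the threshold.

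Glra1, the alpha-1 glycine receptor subunit best known from spinal cord, measured 8.19 and 8.67 in VC CA1 and 8.95 in wild-type CA1, against 9.27 to 9.83 in hippocampus. It was 1.81-fold lower (-0.86 ± 0.15, adjusted p = 0.00258). Drd4, an inhibitory dopamine receptor, measured 8.45 and 9.07 in VC CA1 and 8.21 in wild-type CA1, against 9.12 to 9.91 in hippocampus. It was 2.06-fold lower (-1.04 ± 0.20, adjusted p = 0.00378), and its higher VC CA1 array lay just under the hippocampal range. Chrne measured 9.26 and 9.34 in VC CA1 and 8.43 in wild-type CA1, against 7.93 to 8.54 in hippocampus, and was 1.61-fold higher (0.69 ± 0.13, adjusted p = 0.00315). Its 3 arrays above the median were the CA1 arrays, so it entered the test through the region where it was high. Likewise Grm8 entered through the 2 arrays of 1 week and Grin2d through hippocampal arrays. The GABA subunits Gabrb1 (0.96, adjusted p = 0.0842) and Gabra2 (-0.75, adjusted p = 0.248), the nicotinic subunit Chrna7 (-0.91, adjusted p = 0.0656), Chrm1 (-0.56, adjusted p = 0.257) and Adra2c (0.22, adjusted p = 0.364) did not pass. All 7 genes that were lower had regions without overlap, 30.4% of the receptor genes beside 16.8% of all tested probe sets. Grm8 and Grin2d are among the 7 and entered through the region where they were high, so nothing is read from this share. Without overlap and higher were 0 of the 23, beside 7.60%.

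**Figure D3:**
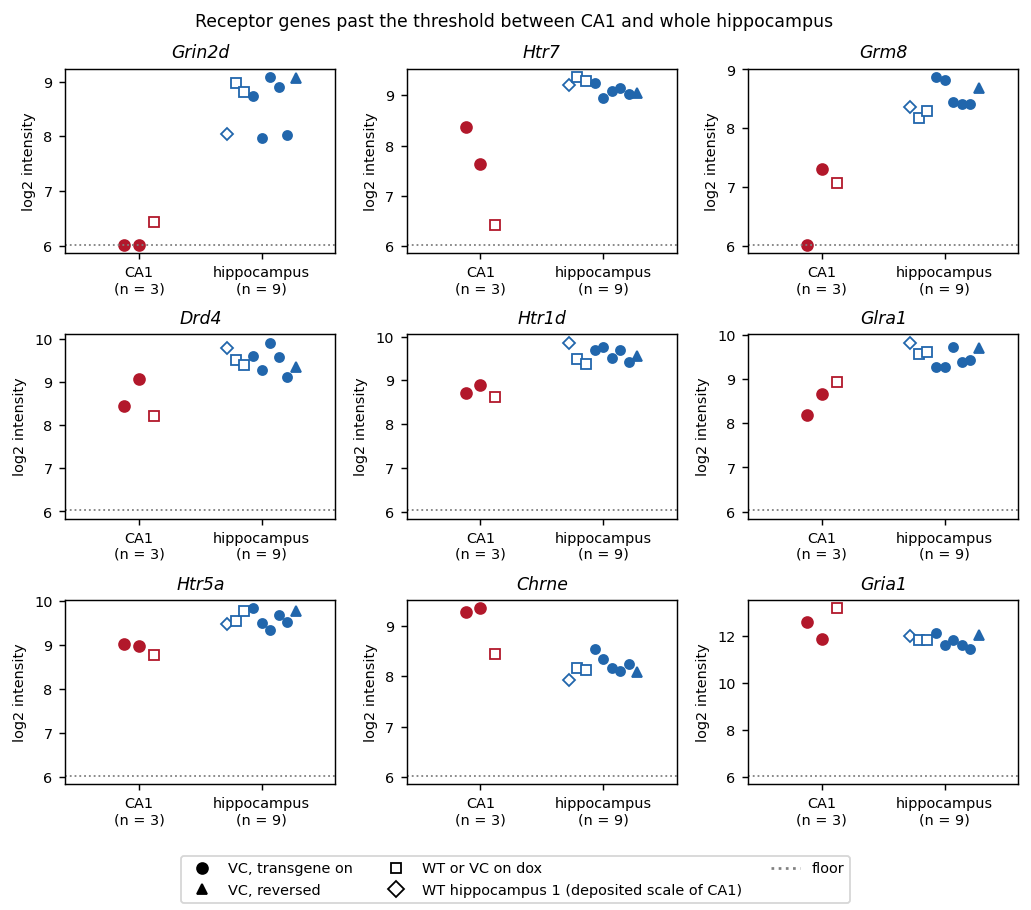
Log2 intensity (vertical axes) of the 9 receptor genes that differed between CA1 (red, 3 arrays) and whole hippocampus (blue, 9 arrays). Filled symbols are VC samples off dox (circles) or reversed (triangle), open ones are wild type or VC on dox, the diamond is the hippocampal array of CA1's deposited scale, and the dotted line is the floor. CA1 lies under hippocampus without overlap for 7 genes, and Chrne and Gria1 overlap.

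The deposited scale nearly coincided with the region, so a difference between scales and one between regions can be told apart only through wild-type hippocampus 1. With the scale as a block, 2 of the 23 tested receptor genes passed, beside 4.17% of all tested probe sets. Those 2, Htr7 at -1.87 and Htr1d at -1.24, are among the 9 called without the block. The other 7 of the 9 kept their direction, at 0.87 for Chrne, 0.75 for Gria1, -0.55 for Htr5a, -1.06 for Glra1, -1.33 for Drd4, -1.63 for Grin2d and -1.68 for Grm8. Within the lower scale, wild-type CA1 minus wild-type hippocampus 1 was -2.78 for Htr7, -1.60 for Grin2d, -1.58 for Drd4, -1.31 for Grm8, -1.24 for Htr1d, -0.88 for Glra1, -0.70 for Htr5a, 0.50 for Chrne and 1.17 for Gria1. These differences set 1 array against 1, so no test is read from them. Other markers also differed between the regions, where 24.6% of all tested probe sets were lower in CA1 and 11.4% higher. Among tested markers, choroid plexus fell in 3 of 5, dentate granule cells in 2 (Cst3, Dsp) of 6 and general neuronal genes in 5 of 16. Microglia rose in 5 and fell in 1 of 16, and endothelial cells and pericytes rose in 5 of 12. Astrocyte markers rose in 2 and fell in 3 of 14. Of 8 oligodendrocyte markers 1 rose and 1 fell, and of 8 CA3 and CA2 markers 1 fell. Striatal markers had no call. Interneuron markers rose in 2 (Npy, Pvalb) and fell in 4 (Calb2, Cck, Gad1, Reln) of 12, and markers of other brain regions rose in 2 and fell in 5 of 10. Summed levels in CA1 and in hippocampus were 12.30 to 12.66 and 12.31 to 14.00 for choroid plexus. For the dentate granule cell list, whose sum includes Cst3, they were 14.37 to 15.02 and 15.13 to 15.74. For microglia they were 14.85 to 16.38 and 14.28 to 16.11, and for endothelial cells 13.47 to 13.76 and 13.00 to 13.24. Ttr, the defining choroid plexus transcript, measured 6.32 to 7.94 in CA1, against 8.64 to 13.11 in hippocampus. Dsp, a granule cell marker, measured 8.31 to 9.69 in CA1, against 9.56 to 10.88, and a second Dsp probe set was at the floor throughout. Of 7 tested CA1 pyramidal markers 2 rose (Pou3f1, Zbtb20), 1 fell (Dcn) and 2 were negative in all, with a median of 0.13. Log2 ratios of 3′ to 5′ control probe sets were 2.30 to 2.75 in CA1, against 1.05 to 1.92 in hippocampus, for pyruvate carboxylase. They overlapped for actin, at 0.48 to 1.90 in CA1 against 0.85 to 1.49, and for Gapdh, at -0.26 to 0.23 in CA1 against -0.20 to 0.44. The part of these differences in the receptor values was not tested.

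Htr7 was also the only receptor gene called between VC CA1 and wild-type CA1. At 8.37 and 7.63 in VC CA1, against 6.42 in wild-type CA1, it was 3-fold higher (1.59 ± 0.27, adjusted p = 0.0434, limma). This is 1 of 23 genes (4.35%), beside 34 of 7077 probe sets (0.480%), and 3 receptor genes had an unadjusted p under 0.05, beside 10.0% of all probe sets. The wild-type CA1 group was a single array, and the call was lost under quantile normalization, on values as deposited, with no floor, with limma's trend and robust settings, with the scale as a block, within 1 scale, with 8 groups, and when any 1 of 7 hippocampal arrays was left out. The SE of Htr7 pools the spread within groups of several arrays, most of them hippocampal. The single wild-type CA1 array adds nothing to that spread. Its SD was 0.52 between the 2 VC CA1 arrays, against 0.11 on induced and 0.08 on never-induced hippocampal arrays. The SE and p thus follow hippocampal spread more than that of CA1. In whole hippocampus Htr7 measured 8.95 to 9.24 on the induced arrays, against 9.20 to 9.36 on the never-induced ones, so every hippocampal array lay above the CA1 arrays. The transgene's effect in CA1 minus that in hippocampus was 1.77 ± 0.32 for Htr7 (adjusted p = 0.104, limma), which did not pass, and of all 23 receptor genes 0 passed, with 2 at unadjusted p under 0.05, beside 0.0565% of all tested probe sets called and 5.85% at unadjusted p under 0.05. The other unadjusted p-values under 0.05 in CA1 were those of Chrne (0.87 ± 0.22, adjusted p = 0.177) and Gria1 (-0.92 ± 0.33, adjusted p = 0.372). Chrna7 (-1.13 ± 0.60, adjusted p = 0.564) and Htr3a (-0.80 ± 0.38, adjusted p = 0.511), both subunits that form cation channels alone, did not pass. Chrna7 measured 7.04 and 9.02 in VC CA1, against 9.16 in wild-type CA1. Htr3a measured 8.04 and 9.03 in VC CA1, against 9.34 in wild-type CA1, so the first VC CA1 array was the low one for both. That array had the highest actin (1.90) and pyruvate carboxylase (2.75) 3′ to 5′ log2 ratios of the 12 arrays, whose part in the result was not tested. The median over the receptor genes was -0.27, beside -0.02 over all tested probe sets, and 0.17 without the first VC CA1 array. All 16 tested microglia markers were positive in this comparison and 2, Cd14 and Cd52, were called, with summed levels of 16.38 and 16.34 in VC CA1, against 14.85 in wild-type CA1. Their part in the receptor values was not tested.

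With CA1 and hippocampus in a single fit and region as a block, 7 induced and 4 uninduced arrays gave 0 of 23 receptor genes called, with 3 at unadjusted p under 0.05, beside 0.0283% of all tested probe sets called and 6.88% at unadjusted p under 0.05. Those 3 were Chrne (0.38 ± 0.14, adjusted p = 0.602), Htr4 (-0.37 ± 0.15, adjusted p = 0.643) and Glra1 (-0.32 ± 0.13, adjusted p = 0.657). The comparisons against the never-induced arrays share those arrays, so their values are not independent of each other.

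**Figure D4:**
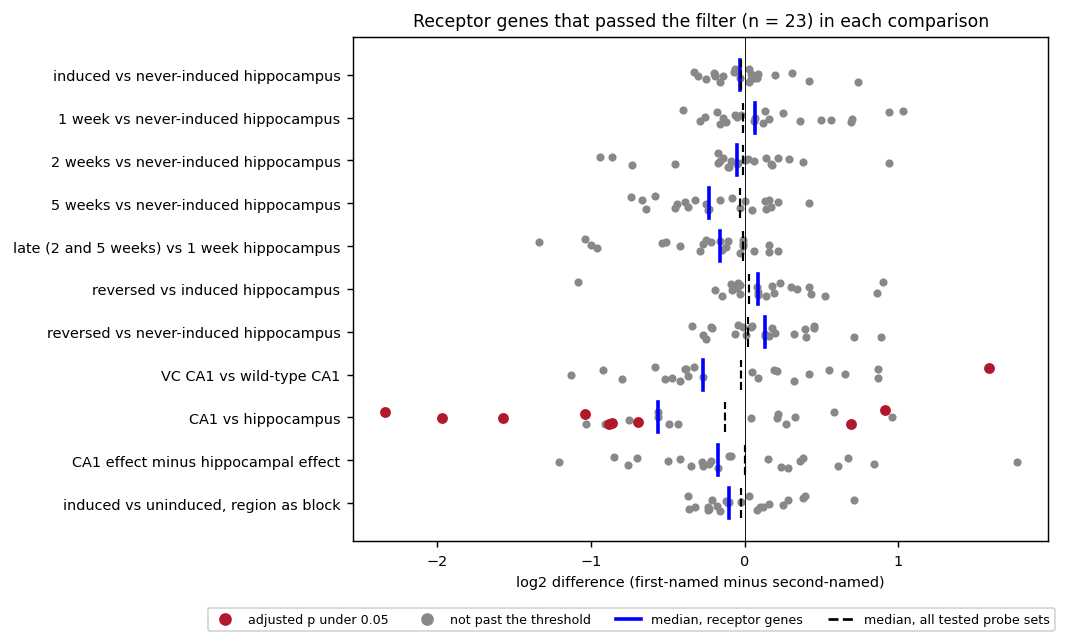
Log2 differences (horizontal axis, first-named minus second-named group) of the 23 receptor genes that passed the filter, as points, in each of 11 comparisons (vertical axis). Red points had an adjusted p under 0.05 (limma), solid lines mark the receptor genes' median and dashed lines the median of all tested probe sets. Red points appear in CA1 against hippocampus (9) and in VC CA1 against wild-type CA1 (1).

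Because CREB binds the cyclic AMP response element (CRE), the 250 bases before the annotated starts of the receptor genes were searched for the full element TGACGTCA and, outside it, for its 5-base core TGACG or CGTCA, on both strands. RefSeq promoters on build GRCm38.p6 matched 36 of the 49 genes, with 44 starts. None of the 44 windows held the full element, beside 1.55% of 32851 promoters. The core without the full element stood in 5 windows (11.4%), beside 16.2%, at the genes Htr7, Grm8, Chrnb1, Chrnb2 and Gabrr1. A match is a run of letters and not a site, and its absence from a window says nothing about the factor. The windows of Htr7 and Grm8 are printed since Htr7 was the receptor gene called in VC CA1 and Grm8 was lower in CA1. Each runs 5′ to 3′ on the minus strand up to the base before the start, with the core in capitals. The Htr7 window is chr19:36057361-36057610, with the core 87 bases before the start and a GC content of 82%. The Grm8 window is chr6:28134422-28134671, at 1 of 3 annotated starts, with the core 24 bases before it. Both windows lie inside the loci given above for Htr7 and Grm8, so neither start is the outer 5′ end of its locus.
Htr7: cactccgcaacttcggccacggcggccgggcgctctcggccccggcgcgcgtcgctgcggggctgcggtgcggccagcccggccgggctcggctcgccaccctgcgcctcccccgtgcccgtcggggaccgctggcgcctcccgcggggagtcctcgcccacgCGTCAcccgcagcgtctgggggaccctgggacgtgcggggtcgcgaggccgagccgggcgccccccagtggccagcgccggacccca
Grm8: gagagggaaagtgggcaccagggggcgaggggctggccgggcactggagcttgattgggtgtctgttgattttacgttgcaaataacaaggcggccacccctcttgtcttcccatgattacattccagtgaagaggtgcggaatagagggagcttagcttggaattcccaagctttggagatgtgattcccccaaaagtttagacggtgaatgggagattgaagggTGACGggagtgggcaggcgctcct

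Of the 49 genes, 8 had several probe sets, and for some these disagreed. Gria1's brightest probe set was higher in CA1, while its other one measured 10.35 and 11.53 in VC CA1 and 11.06 in wild-type CA1, against 10.75 to 12.24 in hippocampus, a difference of -0.48 that did not pass (adjusted p = 0.279). The rise of Gria1 in CA1 thus rests on 1 of its 2 probe sets. So does its lower value in VC CA1 than in wild-type CA1, since the other probe set averaged 10.94 and 11.06 there. Grik5 showed the reverse case. Its brightest probe set differed by 0.04 between the regions, while the other measured 8.65 and 9.38 in VC CA1 and 8.56 in wild-type CA1, against 9.56 to 10.72 in hippocampus, and was called lower (-1.35, adjusted p = 0.00229). The Gria2 probe sets that passed the filter had differences of 0.33, -0.11 and -0.46 between the regions, and a further one lay at the floor on all 12 arrays. The other Chrne probe sets (means of 7.33 and 6.03) did not pass the filter, so the value of Chrne rests on 1 of 3 probe sets. The second was not raised in CA1. It measured 6.03 and 7.05 in VC CA1 and 6.99 in wild-type CA1, against 6.53 to 8.58 in hippocampus. The third lay at the floor on all 12 arrays.

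**Figure D5:**
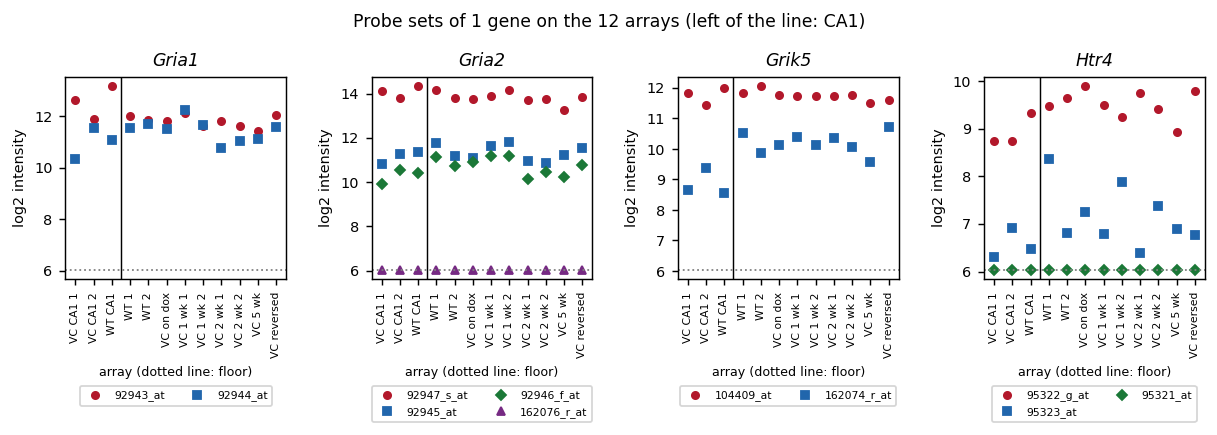
Log2 intensity (vertical axes) of every probe set of Gria1, Gria2, Grik5 and Htr4 on the 12 arrays (horizontal axes, CA1 left of the line). The second Gria1 probe set is not raised in CA1, the second Grik5 probe set is lower in CA1, and 1 probe set each of Gria2 and Htr4 stays at the floor of 6.03.

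The 26 genes under the filter include main carriers of transmission in hippocampus, and their values are given as levels without a test. The NMDA subunit Grin2a ranged from 6.03 to 8.12, with a hippocampal median of 6.78, and Grin2b ranged from 6.17 to 8.92, with a median of 7.44. Grin2b measured 7.44 in VC on dox and 7.74 and 7.02 in wild type, then 8.92 and 8.34 on the 1-week arrays, 7.47 and 6.80 on the 2-week arrays, 6.17 on the 5-week array and 7.37 on the reversed one. Both 1-week arrays were the highest of the hippocampal arrays for Grin2b. Htr1a, the inhibitory serotonin receptor of pyramidal cells, measured 6.13 and 7.38 in VC CA1 and 6.03 in wild-type CA1, against 7.42 to 8.43 in hippocampus. Gabrd, the delta subunit of extrasynaptic GABA type A receptors, ran the other way, with 7.78 and 7.27 in VC CA1 and 8.14 in wild-type CA1, against 6.03 to 6.67 in hippocampus. For both genes the regions did not overlap.

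The muscle nicotinic subunit Chrnb1 lay at the floor on 10 of 12 arrays, while the muscle subunits Chrnd and Chrng did so on 3 and 1 and reached 8.30 and 8.38. The retinal GABA subunit Gabrr1 was at the floor on 8 arrays and Htr1f on 8. Gabra6, the subunit of cerebellar granule cells, ranged from 6.03 to 7.49, the dopamine receptor Drd3 from 6.03 to 7.62, and Chrm4, an inhibitory muscarinic receptor, from 6.03 to 8.32. Drd2, a striatal dopamine receptor, ranged from 8.07 to 8.64 in CA1 and from 7.91 to 8.60 in hippocampus. Chrnb2, the partner subunit of most brain nicotinic receptors, ranged from 6.03 to 6.88 over all arrays. The remaining genes under the filter (Adra1b, Chrna1, Chrna6, Gabra3, Gabrb2, Gabrg1, Gabrg3, Gabrr2, Gria4, Grik1, Htr2b and Htr2c) lay between 6.03 and 8.59 on all arrays. Over all 49 genes, filter or not, the median difference was -0.03 for induced against never-induced hippocampus, -0.22 for the later times against 1 week and -0.39 for CA1 against hippocampus.

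Genes that act with the receptors were called mainly between the regions. Of receptor scaffolds and trafficking genes 19 were tested, of genes for transmitter synthesis, transport and breakdown 16, and of other brain receptors 14. In the whole-hippocampus comparison of induced with never-induced arrays 0 of each list were called by limma, with list medians of -0.04, 0.02 and -0.03. Between CA1 and hippocampus 2 scaffolds rose and 7 fell, with a median of -0.12, beside 11.4% higher and 24.6% lower of all tested probe sets, whose median was -0.13. Dlg4 (PSD-95), the main scaffold of excitatory synapses, measured 13.81 and 11.88 in VC CA1 and 13.88 in wild-type CA1, against 10.60 to 12.42 in hippocampus (2.05 ± 0.43, adjusted p = 0.00535). Cacng2 (stargazin), an auxiliary subunit of AMPA receptors, measured 10.47 and 10.06 in VC CA1 and 10.90 in wild-type CA1, against 8.96 to 9.89 in hippocampus (1.15 ± 0.23, adjusted p = 0.00398). Gphn (gephyrin), the scaffold of inhibitory synapses, measured 10.16 and 10.32 in VC CA1 and 10.32 in wild-type CA1, against 10.51 to 10.84 in hippocampus (-0.40 ± 0.12, adjusted p = 0.0258).

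Of the 16 transmitter-handling genes 1 rose and 5 fell in CA1, a share near the 36.0% of all tested probe sets called. Ache, which breaks down acetylcholine, rose by 0.69, and Gad1, which makes GABA in interneurons, measured 12.29 and 12.84 in VC CA1 and 12.20 in wild-type CA1, against 13.08 to 13.60 in hippocampus (-1.11 ± 0.16, adjusted p = 0.000865). The serotonin transporter gene Slc6a4 fell by 1.04. The glutamine synthetase gene Glul had probe sets called in both directions, at -0.62 and 1.68. Of the 14 other receptors 0 rose and 7 fell, beside 24.6% of all tested probe sets lower, with a median of -0.68 beside -0.13, among them the histamine receptor Hrh2 (-1.87), the nociceptin receptor Oprl1 (-1.16), the galanin receptor Galr1 (-1.15) and the cholecystokinin receptor Cckbr (-0.74). In VC CA1 against wild-type CA1 the call among the 3 lists was Rapsn, the scaffold of muscle nicotinic receptors, which rose.

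Among the 253 pairs of receptor genes that passed the filter, the most alike over the 12 arrays were Chrna7 and Htr3a (Pearson's r = 0.95), Grm8 and Htr1d (0.90) and Chrna7 and Grm8 (0.88). The most opposed were Chrne and Glra1 (-0.92), Chrna7 and Grin2c (-0.85) and Chrne and Grin2d (-0.82). These values describe the arrays, which differ in region and deposited scale. Over the 9 hippocampal arrays alone the most alike pairs were Gabra2 and Grik2 (0.87), Grin2d and Htr5b (0.86) and Gria3 and Grik2 (0.86), and the most opposed were Chrne and Glra1 (-0.80) and Gabrb1 and Grin2c (-0.66). The arrays of a pair share their RNA and labelling, and no test was made of these correlations.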

How the data were processed

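RNA from mouse hippocampus (pooled mice) or CA1 was hybridised to 12 Affymetrix MG-U74Av2 arrays. The authors deposited linear intensity values made with GCOS, the Affymetrix array software, per the submitters' processing notes; GCOS version, algorithm and scaling are not stated in the sources read. Here all arrays were brought to a common trimmed mean of 1000 (2% cut at each end), with a floor at percentile 20 of the pooled scaled values (65.5, or 6.03 on the log2 scale), and log2 transformed. Of 12488 probe sets, 66 controls were left out, and those above their own array's median on at least 2 arrays were tested (7077 of 12422). Symbols came from the platform annotation (10833 probe sets with 1 symbol, 396 with several, 1193 with none), and all 49 receptor genes matched the RefSeq table.

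Samples were grouped by title. Comparisons were fitted with lmFit and eBayes of limma 3.58.1, run in R 4.3.3 (two-sided, Benjamini-Hochberg over all tested probe sets, threshold 0.05), in a fit with 5 levels or, for single times, 7. A level with 1 array was assumed to vary like the others. Spread was pooled over the levels with several arrays. The SE and p of comparisons with CA1 thus follow hippocampal spread more than that of CA1. Folds are lower bounds ("at least") where the lower group held a value at the floor. The number of arrays limits the precision. The same code was checked on simulated data. The receptor genes, lists and tests were chosen with earlier results of these data known. Genes were named when past the threshold, among the 3 largest differences either way in a comparison, well known in hippocampus, at the ends of a family, or with disagreeing probe sets; Htr1a, Gabrd, Grin2b, Drd3, Chrnb1, Chrnd, Chrng, Gabrr1 and Htr1f also after their values were seen. Replicate numbers in the titles were tested as a block, and differences between replicates correlated between groups at r = -0.23 to 0.20, so they did not pair the samples.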

Additional observations from a re-analysis of the deposited data

Results flagged for a closer look

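Among the 5 induced hippocampal arrays, a Dixon test of the single farthest array set 2 of 23 receptor genes apart, and 411 of 7077 tested probe sets (5.81%). The nominal rate of that test, 1 in 20, is for replicates, whereas these arrays come from 1, 2 and 5 weeks. The 5-week array was the only one of its time. Chrm1 measured 10.39 on the first 1-week array, against 9.08 to 9.37 on the other 4 induced arrays. Grik5 measured 11.50 on the 5-week array, against 11.72 to 11.77 on the other 4. The cause of either was not tested.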

How the results depend on the processing

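Of 249 recomputed counts of receptor genes called, 224 stayed within 1.5 times the reported count. Most comparisons had a reported count of 0, and a 0 that stayed 0 is among the 224. Of 249 medians 239 stayed within the spread, which is the median SD of single receptor genes within groups. The totals are thus no measure of robustness. For VC CA1 against wild-type CA1, 8 of 11 counts with an array left out moved. Of 217 values of single genes 185 kept their side of the threshold. Without rescaling, values as deposited carry the scale difference: the receptor medians became 0.83 for induced against never-induced hippocampus, 0.93 at 1 week, 0.81 at 2 weeks, 0.63 at 5 weeks, 0.99 for reversed against never-induced, -2.64 for CA1 against hippocampus, -1.03 for the difference between effects and 0.58 with region as a block, and Chrne (-1.46) and Gria1 (-1.24) turned to lower in CA1. On that scale all tested probe sets had a median of -2.28 between CA1 and hippocampus, against -0.03 after quantile normalization, where 928 were called higher and 1237 lower, against 808 and 1739. The count for CA1 against hippocampus was 22 on values as deposited, 14 with no filter, 2 with the scale as a block and 9 to 13 with arrays left out in turn, with a median of -0.72 to -0.19. On a single deposited scale that comparison sets 1 array against 1, so nothing is read from its count. The wild-type CA1 array could not be left out of it. For VC CA1 against wild-type CA1 the count was 0 under quantile normalization, values as deposited, no floor, trend and robust settings, the scale as a block, a single scale and 8 levels, and 0 to 2 with arrays left out, where Chrna7 and Htr7 were called without the second VC CA1 array and the median was -0.27 to 0.17. For later times against 1 week the count was 1 (Gabra2) on a single scale and 0 to 1 with arrays left out. For the difference between effects it was 1 (Htr7) with no filter and 0 to 1 with arrays left out. With the replicate block 0 receptor genes were called in the 4 hippocampal comparisons it could be run for. Medians were -0.02 for induced against never-induced, 0.06 at 1 week, -0.02 at 2 weeks and -0.13 for later times. Those comparisons had 0 receptor genes called without the block too, so nothing is read from these counts. The block was not run for the comparisons in which receptor genes were called. Counts over all probe sets moved more: with no filter 294 were called in VC CA1 and 228 for the difference between effects, with the scale as a block 295 between CA1 and hippocampus, and with the replicate block 1 at the later times, against 34, 4, 2547 and 41. Apart from the effects of construction named here, the cause was not tested.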
